A study of Caenorhabditis elegans with 2 samples.

Results

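The genes examined here are 10 regulators of the mesoderm in Caenorhabditis elegans, taken from a list of MS lineage, pharynx and muscle regulators and the factors above them, out of 19985 protein-coding genes in the annotation. They are skn-1, pal-1, tbx-35, ceh-51, pha-4, tbx-2, ceh-22, hnd-1, hlh-1 and unc-120, and all 10 were found by symbol. The data are chromatin immunoprecipitation followed by sequencing (ChIP-seq) for MED-1 from whole hermaphrodite embryos of the middle stage, in 2 biological replicates of 1 group. The strain, OP391, carries unc-119(ed3) on chromosome III and the transgene wgIs391, which holds med-1 with TY1, EGFP and FLAG tags at the C-terminus and a rescuing unc-119(+). The chromatin was fragmented by sonication, and the precipitation used anti-GFP, although the antibody label itself names med-1. All 10 genes were read from the same 2 samples, so no group of samples was compared with another. ChIP from worms without the tag was not analysed here. Embryos were used whole, with all their cell types mixed, and their age is labelled unknown, so occupancy in a few MS cells could not be told apart from weak occupancy in many.

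MED-1 and its near twin MED-2 are GATA-type zinc finger factors that start the mesendoderm programme in the EMS blastomere. The maternal bZIP factor SKN-1 turns them on, and they in turn activate tbx-35 in the MS daughter cell, which makes much of the pharynx and body wall muscle, and end-1 and end-3 in the endoderm daughter. Unlike most GATA factors, the MED proteins recognise a site with the core GTATAC. TBX-35, a T-box factor, specifies MS and activates ceh-51, after which organ and tissue regulators such as PHA-4 and HLH-1 take over. The MED genes are known to act early and in few cells.

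The promoter of tbx-35 is printed first because it is the only stretch at these genes where the strongest peak and the MED site coincide. The MED site was searched as AAGTATAC or GAGTATAC on both strands, and its core as GTATAC, with overlapping matches counted. The sequences are from the RefSeq copy of WBcel235, the assembly also called ce11, and run 5′ to 3′ on the strand of the gene. Capitals mark MED sites and, where the flanking bases differ, the core alone. The promoter sequence lies at chrII:5525398-5525691 on the minus strand and is the part of the pooled peak upstream of the gene, from 294 to 1 bp before the gene start. The distal sequence shows the remaining MED site of the upstream kilobase, at chrII:5525946-5525975 on the same strand.
tbx-35 promoter peak: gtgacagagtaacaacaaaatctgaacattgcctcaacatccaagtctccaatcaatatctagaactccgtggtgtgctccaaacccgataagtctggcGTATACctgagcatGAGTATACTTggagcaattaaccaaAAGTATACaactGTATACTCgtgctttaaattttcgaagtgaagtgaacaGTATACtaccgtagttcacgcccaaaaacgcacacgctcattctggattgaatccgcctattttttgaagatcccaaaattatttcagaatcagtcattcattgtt
tbx-35 distal site: agcataagtatGTATACTTggtgcaattaa

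None of the 10 genes carried a peak of the optimal set. This is the authors' final list of 460 peaks, based on a comparison of peak ranks between replicates by the irreproducible discovery rate (IDR). All 460 overlapped a replicate 2 peak by at least 1 bp, and 434 a replicate 1 peak. A peak was counted at a gene when its summit lay between 5 kb upstream of the gene start and the gene end. Over all protein-coding genes, 887 of 19985 had an optimal peak by this rule (4.44%). At that rate 0.444 of 10 genes would have one, so a number below the rate of all genes was not detectable with 10 genes. The optimal peak nearest to each gene body lay between 18.3 kb away, at tbx-35, and 280 kb away, at skn-1, with a median of 69.7 kb. The one near tbx-35 had its summit inside the snRNA gene sls-2.2.

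The wider lists include background peaks, and the pooled and replicate 2 lists reach most genes of the genome. In the pooled list of 30000 peaks, made from both replicates, 10 of 10 genes had a summit, against 86.6% of all protein-coding genes. In the replicate 2 list, also of 30000 peaks, 9 of 10 genes had one, against 87.3%. In the replicate 1 list of 2401 peaks, 1 of 10 had one, against 18.1%. The 9 genes with a replicate 2 peak were all but ceh-22, and the gene with a replicate 1 peak was tbx-2.

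The stricter readings of these lists left few genes. Among the strongest 2000 pooled peaks, 1 of 10 genes had a summit, tbx-35, against 15.6% of all genes. No gene had a pooled peak that overlapped a peak of each replicate by at least 1 bp, against 11.4% of all genes. No gene had a peak of any list with a deposited score of at least 2, against 2.37% of all genes. These shares lie near or below the rates of all genes, and with 10 genes none of them sets the regulators apart.

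**Figure D1:**
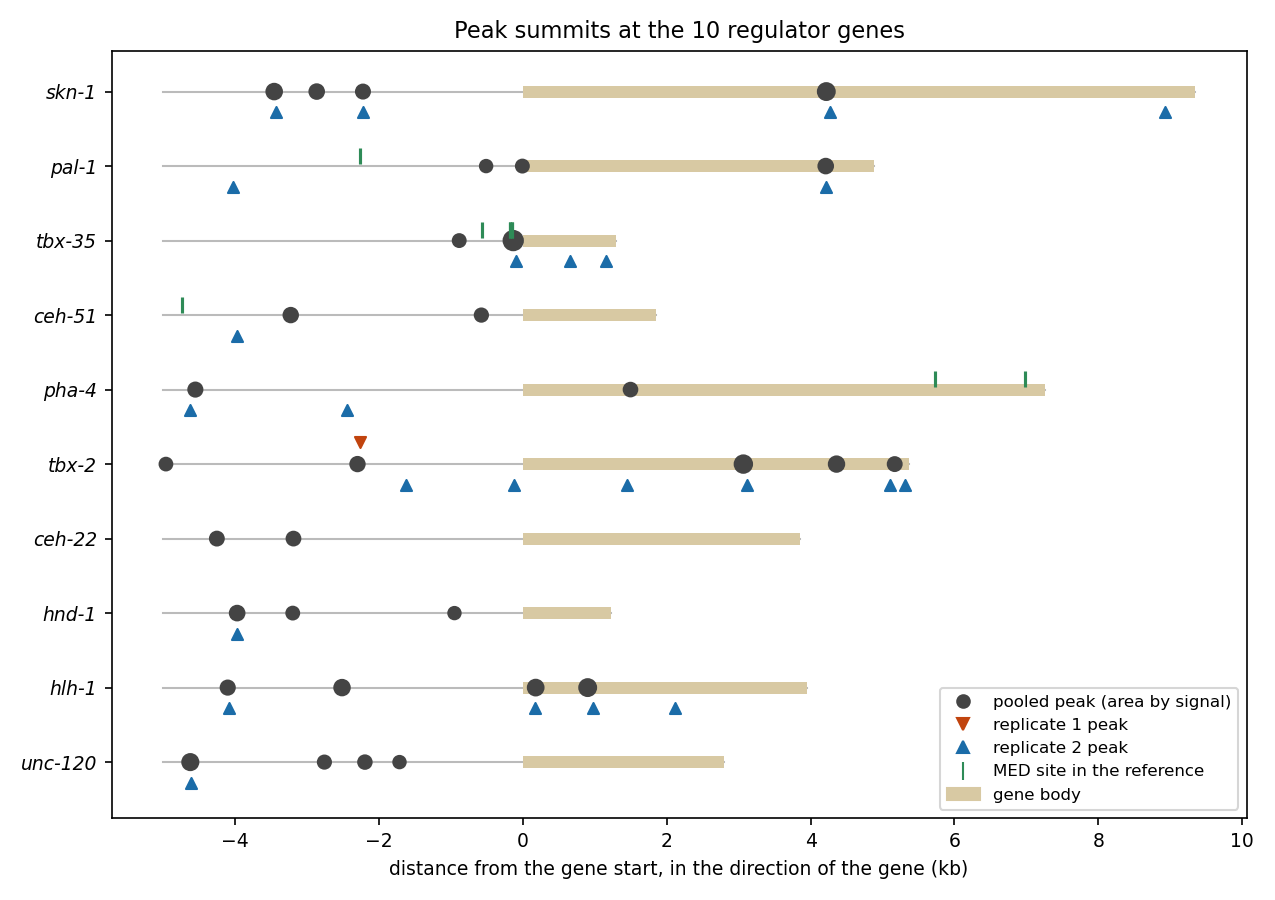
Peak summits at the 10 regulator genes, one row each, by distance from the gene start in kb, with circles for pooled peaks (area by signal), triangles for the replicate lists and green ticks for MED sites of the reference. The only replicate 1 peak is at tbx-2, and the only circle that meets MED sites is at the tbx-35 start.

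The 31 pooled peaks at the genes were weak. Their signal, the authors' deposited value, ranged from 11.6 to 28.4 with a median of 15.1, against a median of 15 over the whole pooled list. All of them lay under 38.9, the lowest signal of the optimal set. Their ranks ran from 1095 to 29675, where 1 is the strongest. The deposited score was below 0 for all 31 peaks, as it was for 29497 of the 30000 pooled peaks. Pooled peaks were spaced at 0.338 per kb in the windows of these genes and at 0.307 per kb in the windows of all protein-coding genes. The other lists ran the other way, with 0.261 against 0.308 per kb in replicate 2, 0.0109 against 0.0265 in replicate 1 and 0.0109 against 0.0229 among the strongest 2000 pooled peaks. The windows themselves were longer, with a median of 8.90 kb against 7.03 kb.

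Counterparts of these peaks in the replicate lists were mostly from replicate 2. Of the 31 pooled peaks, 14 overlapped a replicate 2 peak (45.2%), against 18938 of 30000 over the pooled list (63.1%). A replicate 1 peak was overlapped by 1 of them (3.23%), against 2395 of 30000 (7.98%). Peaks of the pooled list share reads with both replicate lists, so these overlaps are not independent of the pooling.

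Most of the 31 summits lay upstream of the genes and none in their coding exons. There were 23 upstream, 7 in introns and 1 in a UTR. For 20 of them the nearest start of a protein-coding transcript was that of the regulator, and for 11 it was that of a neighbour. A summit lay within 500 bp of a start of the regulator in 4 cases. None had a gene for a small structural RNA (tRNA, rRNA, snRNA or snoRNA) closer than 200 bp, and the smallest such distance was 875 bp.

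**Figure D2:**
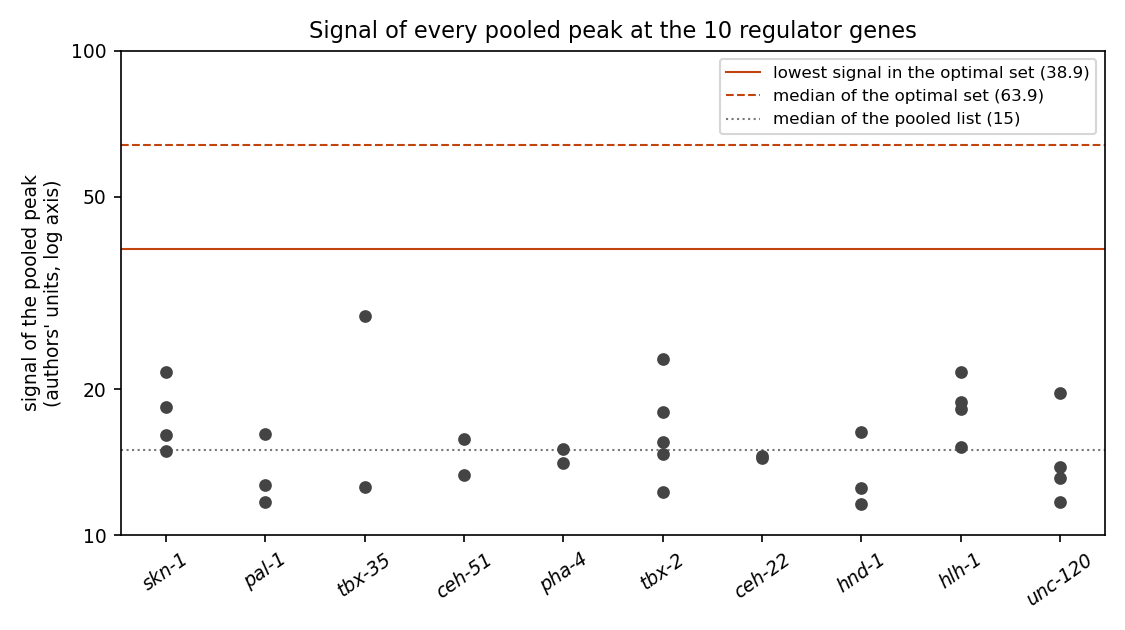
Signal of each of the 31 pooled peaks at the 10 genes on a log axis, in the authors' units, with lines for the lowest and the median signal of the optimal set and for the median of the pooled list. All points lie below 38.9, and the highest is the tbx-35 promoter peak at 28.4.

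tbx-35, the T-box gene that specifies MS and a known target of the MED factors, had the strongest peak of the 10. The gene (WBGene00006554) lies on chromosome II from 5524101 to 5525397, on the minus strand. Its pooled peak, from 5525368 to 5525691, had a signal of 28.4, rank 1095 and a score of −0.360, with the summit 133 bp upstream of the gene start. In replicate 2 the overlapping peak had a signal of 16.8 and rank 1476, with the summit 96 bp upstream. Replicate 1 had no peak at the gene. In the pooled list, 1878 of 19985 genes (9.40%) had a stronger peak by the same rule, and in replicate 2 this was 2411 genes (12.1%). Between the weakest optimal peak and the tbx-35 peak stood 634 pooled peaks. The remaining peaks at tbx-35 ranked 24634 in the pooled list, 884 bp upstream, and 15664 and 29476 in replicate 2, in coding exons.

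Matches to the MED site were most numerous at this gene. The kilobase upstream of tbx-35 held 5 matches to the MED site and 8 to the core. No other protein-coding gene had as many of either. A match was found upstream of 1 of the 10 regulators, tbx-35, against 3.95% of all genes, and the core upstream of 3, against 11.6%. The other pair with a core was tbx-2, 493 bp upstream, and hnd-1, 469 bp upstream. The 5 matches use 4 different cores, because GAGTATACTT is read as a site on each strand. Counted by cores within sites, tbx-35 may not stand alone, since end-3, sdz-1 and vps-33.1 have 4 sites and 4 cores each. Of the 5, 4 fell inside the pooled peak, with centres 7 to 44 bp from the pooled summit. The fifth lay 567 bp upstream of the gene start, outside any peak. The 4 lay 144 to 181 bp upstream, so the replicate 2 summit, 96 bp upstream, was farther from them. The replicate 2 peak also held 4 sites. In the promoter printed above, the 4 sites inside the peak are the 3 capital runs in its middle.

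Few peaks anywhere held so many sites. Of the 30000 pooled peaks, 351 (1.17%) contained a MED site, 6 contained 3 or more, and 3 contained 4, the highest number. The 3 peaks with 4 sites were those nearest to the starts of tbx-35, sem-2 and sdz-1, with ranks of 1095, 2285 and 12718. The 4 sites in the tbx-35 peak use 3 different cores, and for the other peaks different cores were not counted. The names sem-2 and sdz-1 were chosen after their values were seen. SEM-2 is a SoxC factor of the postembryonic mesoderm, and sdz-1 was named for its dependence on SKN-1 in the early embryo. Of the 460 optimal peaks, 5 held a MED site (1.09%), each of them a single one. These shares were not set beside other stretches of the same length. They therefore do not tell whether peaks hold more sites than other sequence.

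Over the genome, genes with a MED site upstream had peaks at about the rate of all genes. A peak was counted anywhere in the window, from 5 kb upstream to the gene end, and need not cover the site. Of 790 genes with at least 1 site in the upstream kilobase, 35 had an optimal peak (4.43%), against 4.44% of all genes. Of the same 790, 108 had one of the strongest 2000 pooled peaks (13.7%), against 15.6% of all genes. Besides tbx-35, 6 genes had 4 sites, namely the endoderm gene end-3, F55C5.10, hlh-28, hlh-29, sdz-1 and vps-33.1. The best ranks of sdz-1 and vps-33.1 were the same, 12357 in the pooled list and 11582 in replicate 2. The strongest peak in the window of end-3 ranked 14685 in the pooled list and 2584 in replicate 2, and no peak of replicate 1 lay at any of these 7 genes.

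**Figure D3:**
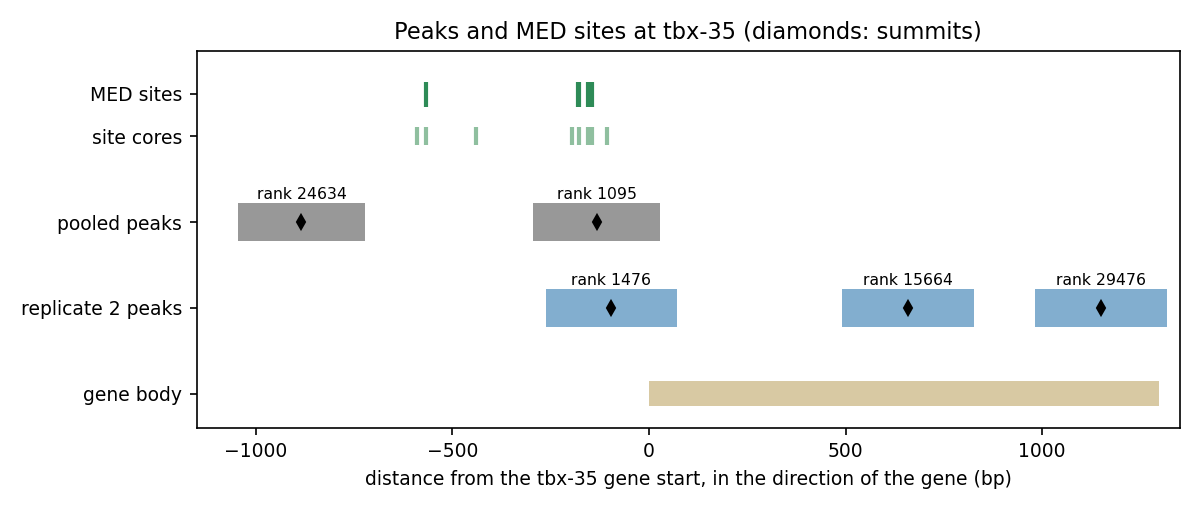
Extent of the pooled and replicate 2 peaks around the tbx-35 gene start, in bp along the gene, with summits as diamonds and ranks above the bars, and with MED sites and site cores of the reference as ticks. The pooled peak of rank 1095 spans 4 of the 5 MED sites, and replicate 1 has no peak to draw.

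Of the genes for factors that act upstream of or beside MS specification, skn-1 had stronger pooled peaks than pal-1. skn-1 (WBGene00004804, chromosome IV, 5651039 to 5660384, minus strand) encodes the maternal bZIP factor that turns on the MED genes. Its 4 pooled peaks had signals of 21.7, 18.4, 16.1 and 14.9, led by an intronic summit 4219 bp into the gene with rank 3525. The strongest of its 4 replicate 2 peaks was a different one, 2222 bp upstream, with a signal of 12.4 and rank 5207. Its 3 upstream pooled summits lay inside the neighbouring gene bec-1 and were nearest to the start of that gene. pal-1 (WBGene00003912, chromosome III, 4804688 to 4809576, minus strand) encodes the Caudal-like homeodomain factor that specifies the C and D lineages, which also make muscle. Its pooled peaks had signals of 16.2, 12.7 and 11.7, with ranks from 11665 to 29136, and replicate 2 had peaks with 9.21 and 7.93. The strongest pooled summit, in an intron, was nearest to the start of metl-5. The pooled summit 6 bp before its start was the closest of all to a gene start, and it overlapped no replicate peak. Its window held 1 MED site, 2270 bp upstream and outside any peak.

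ceh-51, the gene that TBX-35 activates, had weak peaks in the pooled list and in replicate 2 that did not coincide. It encodes an NK-2-class homeodomain factor that works with TBX-35 in MS development, and it lies on chromosome V from 18874133 to 18875982 (WBGene00013583, plus strand). Its pooled peaks had signals of 15.8 and 13.3 and ranks of 12726 and 21470. The single replicate 2 peak, with a signal of 8.25 and rank 19046, lay 3977 bp upstream, away from both. Its MED site, 4738 bp upstream, was in no pooled peak. All 3 summits were inside the body of the neighbouring gene emb-4.

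The pharynx regulators differed mainly through tbx-2. pha-4 (WBGene00004013, chromosome V, 20753052 to 20760317, plus strand) encodes the FoxA factor that selects pharynx identity. It had pooled signals of 15.1 and 14.1, with ranks of 14608 and 18226, and replicate 2 signals of 8.25 and 6.86. Of its 2 pooled summits, one lay 4552 bp upstream, nearest to the start of dnj-25, and the other lay in an intron. The peak of the first overlapped a replicate 2 peak. The MED sites of pha-4, both inside the gene, 5731 and 6975 bp from its start, were outside peaks. ceh-22 (WBGene00000445, chromosome V, 10671918 to 10675769, plus strand) encodes an NK-2 factor that activates the pharyngeal myosin gene myo-2. It had pooled signals of 14.6 and 14.4, with ranks of 16209 and 17124, and no peak in either replicate list. Its best rank was the lowest of the 10 genes, with a stronger peak at 13718 of 19985 genes (68.6%), and both summits were nearest to the start of twk-12.

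tbx-2 was the one regulator with a peak in all lists but the optimal one. It encodes a T-box factor needed for pharyngeal muscle made by the AB lineage, and lies on chromosome III from 5130923 to 5136296 (WBGene00006543, minus strand). The replicate 1 peak, from 5138410 to 5138705, had a signal of 15.9, rank 1040 and a score of 0.154, with the summit 2262 bp upstream of the gene start. The overlapping pooled peak ranked 13092 with a signal of 15.6, and no replicate 2 peak overlapped it. The strongest pooled peak was elsewhere, in an intron 3066 bp into the gene, with a signal of 23.1 and rank 2647. There replicate 2 had a peak with a signal of 13.2 and rank 4081, and replicate 1 had none. The replicates thus placed their strongest tbx-2 peaks at different positions. The other pooled signals at tbx-2 were 18.0, 14.7 and 12.3.

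The muscle regulators, like all of the 10 genes but tbx-2, had no replicate 1 peak, where 18.1% of all genes had one. hlh-1 (WBGene00001948, chromosome II, 4518574 to 4522528, plus strand) encodes the MyoD homologue of worms. Its pooled signals were 21.7, 18.8, 18.2 and 15.2, with ranks of 3504, 6528, 7582 and 14254. The first pair lay in introns 902 and 179 bp from the gene start, and both overlapped replicate 2 peaks, with signals of 12.3 and 11.4. The strongest replicate 2 peak, with 13.2 and rank 4066, was 4083 bp upstream, where the pooled peak was the weakest of the 4. Both summits there lay inside the neighbouring gene cyp-23A1 and were nearest to its start. hnd-1 (WBGene00001981, chromosome X, 11684561 to 11685788, plus strand) encodes a Hand-type bHLH factor of early mesoderm. It had pooled signals of 16.3, 12.5 and 11.6, and replicate 2 overlapped the first alone, with 9.80 and rank 11867. That summit, 3971 bp upstream, was nearest to the start of T04F8.7.

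The summits just described can be set beside the tbx-35 promoter, since they are the strongest pooled summits of the next genes in order and, for tbx-2, also the replicate 1 summit. Each is shown as 100 bases on the strand of its gene. They lie at chrIII:5133180-5133279, chrII:4519426-4519525, chrIV:5656115-5656214 and chrIII:5138508-5138607. None has capitals, as none holds a MED site or its core.
tbx-2 strongest pooled summit: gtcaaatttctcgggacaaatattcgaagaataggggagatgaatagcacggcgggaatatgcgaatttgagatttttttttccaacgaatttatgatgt
hlh-1 strongest pooled summit: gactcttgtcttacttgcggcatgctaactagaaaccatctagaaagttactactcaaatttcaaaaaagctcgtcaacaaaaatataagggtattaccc
skn-1 strongest pooled summit: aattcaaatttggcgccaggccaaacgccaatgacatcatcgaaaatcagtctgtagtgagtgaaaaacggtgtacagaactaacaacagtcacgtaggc
tbx-2 replicate 1 summit: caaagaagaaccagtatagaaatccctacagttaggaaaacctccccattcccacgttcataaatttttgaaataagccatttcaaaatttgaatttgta

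unc-120 encodes an SRF-like MADS-box factor that acts with HLH-1 and HND-1 in body wall muscle. The gene (WBGene00006844, chromosome I, 8460225 to 8463015, plus strand) had pooled signals of 19.7, 13.8, 13.1 and 11.7. The strongest, with rank 5487, lay 4622 bp upstream and overlapped the single replicate 2 peak, with a signal of 11.1 and rank 7956. Its summit was nearest to the start of F10D11.6, 4602 bp away. All 4 summits were upstream of the gene, and its window held no MED site.

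Ordered by their strongest pooled peak, the genes ran tbx-35 with 28.4, tbx-2 with 23.1, hlh-1 and skn-1 with 21.7 each, unc-120 with 19.7, hnd-1 with 16.3, pal-1 with 16.2, ceh-51 with 15.8, pha-4 with 15.1 and ceh-22 with 14.6. The pooled list has no replicate of its own, so no error can be attached to the steps between neighbours. The order below tbx-35 depended on the window. With 2 kb upstream, the strongest peak of unc-120 had 11.7, in place of 19.7. With the upstream 5 kb alone, unc-120 came next after tbx-35, as skn-1 had 18.4, hlh-1 had 18.2 and tbx-2 had 15.6. Replicate 2 kept tbx-35 first and then gave hlh-1 and tbx-2 with 13.2 each, skn-1 with 12.4 and unc-120 with 11.1. The median of the best pooled ranks was 8496 for the 10 genes and 7406 for the 17300 protein-coding genes with a pooled peak. The second median leaves out the genes without a pooled peak. With these counted, 48.0% of all protein-coding genes had a peak of rank 8653 or stronger, beside 5 of the 10.

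**Figure D4:**
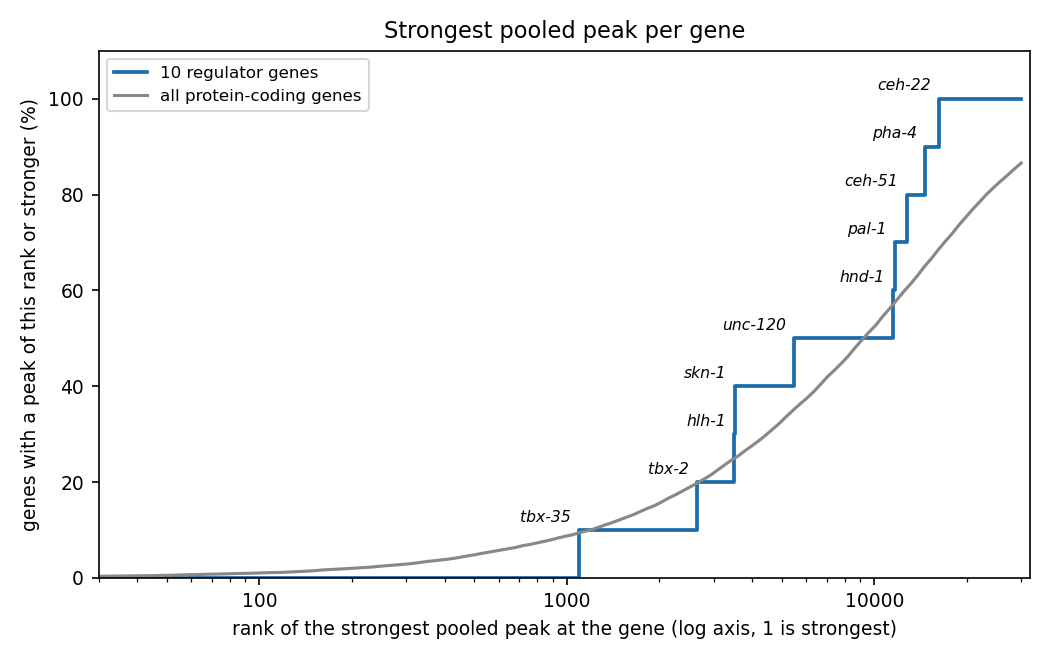
Share of genes, in percent, whose strongest pooled peak has a given rank or a stronger one (log axis, 1 is strongest), for the 10 regulators in blue and for all 19985 protein-coding genes in grey. The blue steps cross the grey curve more than once, from tbx-35 at rank 1095 to ceh-22 at rank 16209.

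Other genes of the pathway were read by the same rule from 6 lists, which together hold 111 genes. An optimal peak was found at 5 of the 111 (4.50%), against 4.44% of all protein-coding genes. With the window ended at the neighbouring gene the count was again 5, against 2.59% of all genes. Among the strongest 2000 pooled peaks the count was 24 (21.6%, against 15.6%), and 14 genes (12.6%, against 11.4%) had a pooled peak with a counterpart in both replicates. A MED site lay upstream of 8 of them (7.21%, against 3.95%). For the 111 together these shares stood at or somewhat above those of all genes, but the lists differed. The 18 maternal and signalling genes gave 10 of the 24 and 7 of the 14, but none of the 8 with a MED site. For the strongest 2000, the counts elsewhere were 1 of 7 mesendoderm GATA genes and 3 of 18 other pharynx and MS regulators. They were 5 of 24 other muscle and mesoderm regulators, 1 of 14 pharynx products and 4 of 30 body wall muscle products. For a counterpart in both replicates they were, in that order, 1, 0, 4, 1 and 1. No test was made of these differences.

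Maternal and signalling genes upstream of EMS held 2 of the 5 optimal peaks, among 18 genes (11.1%, against 4.44% of all genes). The peak upstream of spn-4, which encodes an RNA-binding protein, had a signal of 94.2 and rank 127, and was nearest to the start of spe-39. The peak upstream of mex-1, a CCCH zinc finger gene, had 39.4 and rank 452, and was nearest to W03C9.5. The third gene of this list by strength, sys-1, which encodes a beta-catenin, had a pooled peak with 36.1 and rank 546, nearest to a start of the histone gene his-68. In this list 10 of 18 genes (55.6%, against 15.6% of all genes) had one of the strongest 2000 pooled peaks, and 7 (38.9%, against 11.4%) had a peak with a counterpart in both replicates. These differences were not tested.

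Among 7 mesendoderm GATA genes 1 had an optimal peak, against 4.44% of all genes. The peak was in the window of med-1, 3660 bp upstream, with a signal of 45 and rank 374, nearest to T24D3.2. The transgene adds further copies of med-1, and their part in this peak was not tested. end-3 and end-1, the direct endoderm targets, had best pooled signals of 15.1 and 13.3, although 4 and 2 MED sites lie upstream of them. Their strongest pooled peaks, 2927 and 2451 bp upstream, lay outside the upstream kilobase where these sites were counted, and so could not hold them. In replicate 2 the strongest peak of end-3 ranked 2584 with a signal of 14.7, 1916 bp upstream, and that of end-1 ranked 12954 with 9.52. No replicate 2 peak in either window held a MED site.

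Of 24 other muscle and mesoderm regulators, 1 had an optimal peak, against 4.44% of all genes. It was egl-27, which encodes an MTA-related chromatin protein, with the peak in an intron near one of its starts. That peak had a signal of 46.1 and rank 360, and overlapped a replicate 2 peak and no replicate 1 peak. The next were unc-62 with 33.6 and ceh-20 with 28.7, a Meis-type and a Pbx-type homeodomain gene. The upstream kilobase of ceh-20 has 2 MED sites, but its strongest peak holds none. The 18 other pharynx and MS regulators had no optimal peak, against 4.44% of all genes. They had no peak with a counterpart in both replicates, against 11.4%. Their strongest pooled signals were 28.2 at lag-1, 27.4 at eya-1 and 27.2 at ttx-1, each in an intron.

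The products that define muscle gave 1 optimal peak, where 4.44% of all genes had one. Among 30 body wall muscle genes it lay in the window of pat-3, the beta-integrin gene, with a signal of 242 and rank 21, but 2681 bp upstream and 137 bp from the start of ccdc-47. Next were unc-112, a kindlin gene, with 26.3 and unc-60, a cofilin gene, with 26.1. The 14 genes of pharynx muscle and gland had none, and are too few to tell this from the rate of all genes. Their strongest pooled signals were 27.4 at the actin gene act-4, 20.9 at the troponin I gene tni-4 and 20.5 in the window of act-3.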

How the data were processed

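The authors deposited narrowPeak lists on ce11, another name for WBcel235. By the file lists that came with the samples, a replicate list was made from the alignments of 1 replicate with a control, the pooled list from those of both, and the optimal IDR set from these lists. No source used here gives the aligner, the peak caller or the IDR cut-off. Signal is the authors' deposited value, used only to rank and describe peaks of the same list. The score is the q-value column as the authors deposited it. It falls below 0, so it was taken as a score. The optimal set holds the 460 strongest pooled peaks. Read depth is unknown, so no counting error is given. Lists on ce10 were not used.

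Genes came from Ensembl release 115, and sequence from RefSeq. Python 3.11.15 and pandas 2.3.3 counted peaks at all 19985 protein-coding genes. The window code was checked on planted peaks. No test was made, since there is 1 group. The members and lists were chosen with earlier results of these data known. Genes named are all 10 members, the 3 genes of each list with the strongest pooled peak, and listed genes with an optimal peak. Also named are the genes whose start was nearest to some of the peaks described, and every gene with at least 4 MED sites in the upstream kilobase. Alternatives changed the window, the overlap, the lists, the limits and the motif.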

Additional observations from a re-analysis of the deposited data

How the results depend on the processing

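The counts for an optimal peak and for a peak with a counterpart in both replicates were 0 in the main window. Both stayed at 0 with 10 kb upstream, against 6.47% and 16.6% of all genes. With any overlap with the window they were also 0, against 4.66% and 11.9%. Windows of 2 kb upstream, the upstream 5 kb alone and an upstream limit at the neighbouring gene lie within the main window. Their counts of 0 were therefore fixed in advance, as was that of the 230 strongest optimal peaks. Other rules of agreement also gave 0 for the second count, where asking for more overlap could only lower it. For the score, a minimum of 1 in place of 2, the one alternative run, also gave 0. The pooled list reached 9 members with 2 kb upstream and 8 with the limit at the neighbouring gene, where 65.9% of all genes had a peak, in place of 10. The 460 strongest peaks of one replicate alone gave 0 to 0 members. The strongest 2000 gave 1 to 1, but the gene was tbx-2 without replicate 2 and tbx-35 without replicate 1. With the strongest 1000 pooled peaks the count was 0, against 8.78% of all genes, and with the strongest 5000 it was 4, against 32.7%. The core GTATAC alone was found upstream of 3 members. Of the 111 listed genes, 3 had an optimal peak with 2 kb upstream, against 2.97% of all genes, and 8 with 10 kb, against 6.47%, in place of 5. The strongest pooled signal of a member was the same in 26 of 37 readings with another window. Further readings gave no value, since ceh-22 with 2 kb upstream, and ceh-22 and ceh-51 with the limit at the neighbouring gene, had no pooled peak. At this list depth a weak peak cannot be told from background. No paired analysis was possible because there is 1 group.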
